A study of Homo sapiens with 6 samples.

Results

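The genes described here are the 4 receptors of the epidermal growth factor (EGF) receptor family (EGFR, ERBB2, ERBB3 and ERBB4), 5 of their ligands (HBEGF, AREG, EREG, TGFA and NRG1) and ADAM17, a membrane protease that releases several of these ligands from the cell surface. They were picked by symbol, and all 10 were found among the 63140 genes of the deposited count table. RNA was sequenced from HEK293, an established human line from embryonic kidney, grown to confluence in serum-containing medium. Controls were 3 libraries from cells given the solvent dimethyl sulfoxide (DMSO), and the treated group was 3 libraries from cells given 100 nM GSK-A1 for 24 h, called biological replicates by the labels. GSK-A1 inhibits phosphatidylinositol 4-kinase alpha (PI4KA), the enzyme that supplies phosphatidylinositol 4-phosphate at the plasma membrane. The labels name no added EGF-family ligand and no serum withdrawal in either group. All libraries come from 1 cell line, so the spread between them is that between cultures of this line.

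EGF-family ligands are made as membrane-anchored precursors, and proteases of the ADAM family cut them so that they can reach receptors on the same or on neighbouring cells. Ligand binding lets the receptors pair and phosphorylate each other, which recruits adaptors that feed the RAS-ERK and PI3-kinase pathways. ERBB2 has no known ligand of its own and acts as the preferred partner of the others, while ERBB3 has little kinase activity and signals through its partners. HBEGF and several other ligand genes are themselves known to be switched on by signalling below these receptors, and so are inhibitors such as ERRFI1 that act back on them. The lipid made by PI4KA is a precursor of phosphatidylinositol 4,5-bisphosphate, which phospholipase C gamma and PI3-kinase use as substrate when the receptors are active.

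Library totals ran from 33040178 to 47777233 counts. Levels are given in CPM, the counts of a gene scaled to a common library total with TMM factors. A gene was called when its edgeR quasi-likelihood p, adjusted over all genes tested by the Benjamini-Hochberg method, was under 0.05. GSK-A1 replicate 2 stood apart: its correlations of log2 CPM across genes with the other GSK-A1 libraries were 0.994 and 0.995, against 0.997 for replicates 1 and 3 and for the DMSO pairs. Of 7 genes taken as HEK293 markers, 6 were at 1 CPM or more in every library, and the exception was NEFM at 0.060 to 0.381 CPM. Their summed level was 2037 to 2110 CPM with DMSO and 2184 to 2375 CPM with GSK-A1, without overlap, while PAX2 was at 2.71 ± 0.08 and 2.00 ± 0.06 CPM (SD, n = 3). Most of the summed level was VIM, at 1085 ± 33 and 1217 ± 58 CPM, and NEFL, at 715 ± 2 and 741 ± 46 CPM. Of 7 markers of leukocytes, endothelium, hepatocytes, muscle and fibroblasts, 6 stayed under 1 CPM in every library. The exception was COL1A1 at 4.86 to 7.24 CPM, and the summed level of these 7 was 6.88 to 7.73 CPM with DMSO and 5.04 to 7.04 CPM with GSK-A1. With the adjusted threshold, 22.9% of the 16754 genes tested passed. GSK-A1 cells had the higher level in 12.0% and the lower in 10.9%. Of the calls, 52.3% were higher under TMM factors, 33.3% under upper-quartile factors and 64.0% once each library's trend with GC content was removed.

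After 24 h of GSK-A1, the ligand gene HBEGF was 1.65-fold higher and the sheddase gene ADAM17 was 1.15-fold higher. No other member was called. The log2 fold changes of the 4 receptors lay between -0.09 and 0.10. AREG was measured too imprecisely to judge, and EREG had 1 read in all 6 libraries together. In number, 2 of the 9 members that passed the count filter were called (22.2%), a share near the 22.9% of all genes tested. The median log2 fold change of these 9 was 0.07, against -0.01 over all genes tested. In bulk RNA a change in the share of cells that express a gene and a change in RNA per cell cannot be told apart.

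**Figure D1:**
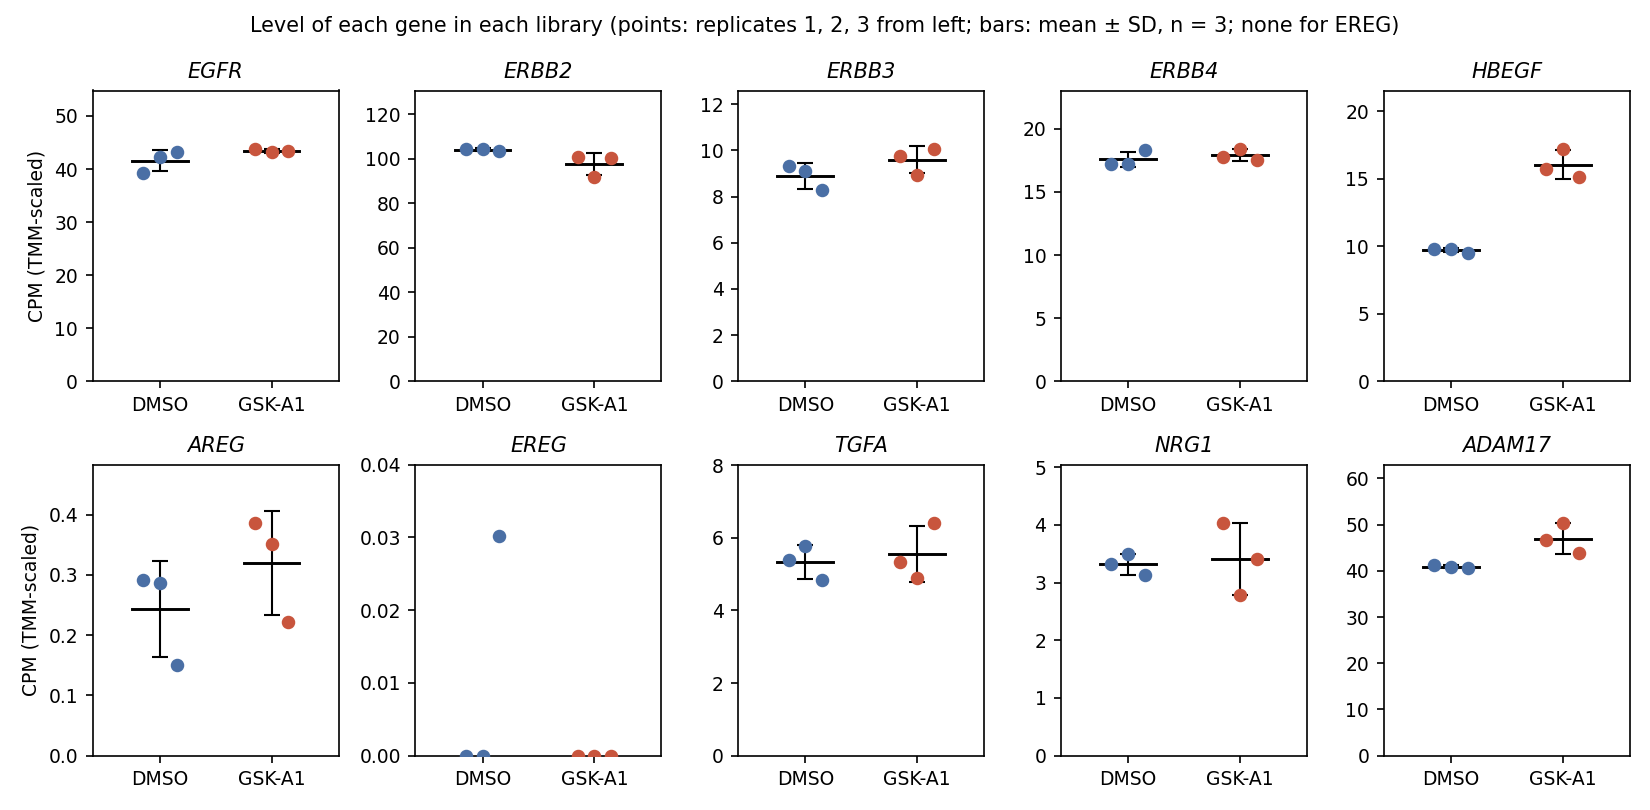
Level of each of the 10 genes in CPM (vertical axes from 0, each with its own scale) in the DMSO (blue) and GSK-A1 (red) libraries; points are replicates 1 to 3 from left to right, and black bars are the mean ± SD of 3 libraries, left out for EREG. The HBEGF libraries sit at 9.54 to 9.78 CPM with DMSO and 15.1 to 17.2 CPM with GSK-A1, while the points of most other genes overlap between groups.

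HBEGF (ENSG00000113070) encodes heparin-binding EGF-like growth factor, a ligand of EGFR and ERBB4. DMSO replicates 1 to 3 were at 9.78, 9.78 and 9.54 CPM. GSK-A1 replicates 1 to 3 were at 15.7, 17.2 and 15.1 CPM. Every GSK-A1 library lay above every DMSO library. The means were 9.70 ± 0.14 and 16.04 ± 1.07 CPM (SD, n = 3). The log2 fold change was 0.72 ± 0.07 (SE; adjusted p = 2.40e-06 by edgeR) with a 95% interval of 0.58 to 0.87. In fold terms the interval was 1.49 to 1.82. HBEGF ranked 168 among the 16754 tested genes by the size of its rise and 59 by p-value. The highest library was GSK-A1 replicate 2, the one that stood apart; without it the log2 fold change was 0.68 ± 0.07 (edgeR adjusted p = 5.24e-12).

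The gene lies on the minus strand at chr5:140332843-140346631 (GRCh38, GENCODE 29). Because HBEGF was the member with the clearest rise, the 250 bases upstream of its RefSeq start are shown (chr5:140346604-140346853, GRCh38.p14, minus strand), 5′ to 3′, with each GC box (GGGCGG on either strand) in capitals.
HBEGF: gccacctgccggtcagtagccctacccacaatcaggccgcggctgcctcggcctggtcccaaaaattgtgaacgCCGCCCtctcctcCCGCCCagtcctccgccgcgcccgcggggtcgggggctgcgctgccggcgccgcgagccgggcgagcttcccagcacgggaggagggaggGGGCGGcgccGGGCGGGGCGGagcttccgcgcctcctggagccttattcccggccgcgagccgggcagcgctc
This stretch was 76.4% G or C, against a median of 58% over 35116 RefSeq promoters of the same length. It held 5 GC boxes, of which the pair nearest the start overlaps by 1 base, and 42.6% of all these promoters held at least 1. Other motifs were searched on both strands and not found in these letters. The TATA box (TATAAA) is in 10.7% of all these promoters, and the E-box (CACGTG) in 6.34%. The AP-1 motif, spelled TGANTCA, is in 6.57%. The cyclic AMP response element or CRE (TGACGTCA) is in 1.65%, and the ETS motif (CCGGAAGT) in 3.42%. The CArG box is in 1.16%. Among the members with a RefSeq promoter, ADAM17 was at 75.6% G or C. TGFA and EGFR, which were not called, reached 75.6% and 73.6%. ERBB2, ERBB4, AREG and EREG were at 57.2% to 65.6%. GC boxes were found in 6 of these 8 members, among them TGFA, EGFR and AREG.

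TGFA (ENSG00000163235) encodes transforming growth factor alpha, a ligand of EGFR. It stood at 5.38, 5.76 and 4.83 CPM with DMSO and at 5.34, 4.89 and 6.41 CPM with GSK-A1 in replicates 1 to 3. The lowest library was a DMSO library and the highest a GSK-A1 library, and the others overlapped. Its log2 fold change was 0.05 ± 0.11 (SE; adjusted p = 0.786 by edgeR), with a 95% interval of -0.18 to 0.27. In percent this runs from -11.6% to 20.9%.

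NRG1 (ENSG00000157168), on chromosome 8, encodes neuregulin 1, a ligand of ERBB3 and ERBB4 made in many isoforms that a count per gene does not separate. It stood at 3.32, 3.50 and 3.14 CPM with DMSO and at 4.03, 2.78 and 3.41 CPM with GSK-A1. The highest and the lowest library were both of the GSK-A1 group, whose SD was 0.63 against 0.18 CPM with DMSO. The log2 fold change was 0.06 ± 0.13 (SE; adjusted p = 0.793 by edgeR; 95% interval -0.22 to 0.33), and it was 0.18 ± 0.12 (edgeR adjusted p = 0.284) without GSK-A1 replicate 2. Its sign turned when GSK-A1 replicate 1 was left out (-0.09 ± 0.14, edgeR adjusted p = 0.680).

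AREG (ENSG00000109321) and EREG (ENSG00000124882) encode amphiregulin, a ligand of EGFR, and epiregulin, a ligand of EGFR and ERBB4. They lie on the same strand of chromosome 4, EREG at chr4:74365143-74388751 and AREG at chr4:74445134-74455009 (GRCh38, GENCODE 29). AREG had 14, 13 and 5 reads in DMSO replicates 1 to 3 and 18, 12 and 8 in GSK-A1 replicates 1 to 3. Summed, that was 32 reads with DMSO (95% exact Poisson interval 21.9 to 45.2) and 38 with GSK-A1 (26.9 to 52.2), counting error only. It passed the count filter, but its log2 fold change of 0.36 ± 0.35 (SE; adjusted p = 0.495 by edgeR) had an interval from -0.38 to 1.11. That range runs from a change of -23.4% to a rise of 116%, so the direction could not be read at this depth.

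EREG had 1 read, in DMSO replicate 3, and 0 in each other library, and was not tested. The 0 reads among 117220365 counts with GSK-A1 allow a level of up to 0.0257 CPM when the limit is taken as 3 reads over the group. The exact Poisson 95% interval, which is wider, reaches 3.69 reads (0.0316 CPM) with GSK-A1 and 5.57 reads (0.0440 CPM) for the 1 read with DMSO. EREG is therefore too low to judge, and no fold change is given. For contrast with the HBEGF promoter, the 80 bases upstream of the RefSeq start of AREG, which was near the detection limit here, are shown (chr4:74445056-74445135, GRCh38.p14, plus strand), 5′ to 3′, with the CRE, the TATA box and the GC box in capitals in that order.
AREG: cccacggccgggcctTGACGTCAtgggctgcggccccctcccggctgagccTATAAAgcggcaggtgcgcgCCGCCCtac
Of the 8 members with a RefSeq promoter in the table, TATAAA was found within 250 bases in EGFR, AREG and EREG, and TGACGTCA in AREG only. The 2 without an entry were ERBB3 and NRG1. For EGFR the TATAAA matches lay upstream of a RefSeq start inside the gene (chr7:55109589-55109838, 38.8% G or C). The stretch at the start of the EGFR gene (chr7:55018767-55019016, 73.6% G or C) held none. A match describes the letters and not a bound site.

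The receptors were next. EGFR (ENSG00000146648, chr7:55019021-55211628), the receptor for EGF, TGFA, AREG and HBEGF among others, stood at 39.3, 42.3 and 43.2 CPM with DMSO and at 43.8, 43.1 and 43.4 CPM with GSK-A1. DMSO replicate 3 lay among the GSK-A1 libraries, so the groups overlapped. The log2 fold change was 0.07 ± 0.05 (SE; adjusted p = 0.338 by edgeR), and the 95% interval ran from -0.03 to 0.17. It thus left room for a rise of at most 12.2%.

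ERBB2 (ENSG00000141736, chr17:39687914-39730426) was the most abundant member. It stood at 104.3, 104.5 and 103.3 CPM with DMSO and at 100.7, 91.7 and 100.4 CPM with GSK-A1. All 3 GSK-A1 libraries lay below all 3 DMSO libraries. The groups did not overlap in 3 of the 9 tested members (HBEGF, ADAM17 and ERBB2) and in 40.5% of the genes tested, either direction counted. The log2 fold change was -0.09 ± 0.04 (SE; adjusted p = 0.131 by edgeR; 95% interval -0.18 to -0.0019), which did not pass the threshold. It was -0.04 ± 0.03 (edgeR adjusted p = 0.310) without GSK-A1 replicate 2 and -0.02 ± 0.03 (edgeR adjusted p = 0.768) with the GC trend removed, and it was called lower under upper-quartile factors (-0.13, edgeR adjusted p = 0.0358). Its longest transcript was 57.5% G or C, the highest of the members. Exons of MIEN1 and PGAP3 on the opposite strand cover 5.53% and 1.88% of its exonic length; PGAP3 fell by 0.31 ± 0.07 on the log2 scale (SE; adjusted p = 0.00671 by edgeR), and its part in the ERBB2 count was not tested.

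ERBB3 (ENSG00000065361), the neuregulin receptor with little kinase activity, stood at 9.30, 9.10 and 8.27 CPM with DMSO and at 9.76, 8.93 and 10.07 CPM with GSK-A1. GSK-A1 replicate 2 lay below DMSO replicates 1 and 2. Its log2 fold change was 0.10 ± 0.08 (SE; adjusted p = 0.355 by edgeR; 95% interval -0.06 to 0.27). ERBB4 (ENSG00000178568), the kinase-active neuregulin receptor that HBEGF also binds, stood at 17.2, 17.2 and 18.3 CPM with DMSO and at 17.8, 18.4 and 17.5 CPM with GSK-A1. Its groups overlapped almost wholly, with a log2 fold change of 0.03 ± 0.06 (SE; adjusted p = 0.756 by edgeR; 95% interval -0.09 to 0.15). The sign for ERBB4 turned under upper-quartile factors (-0.01). For all 4 receptors the 95% interval lay within 0.27 of 0 on the log2 scale, so that a change of the size of that in HBEGF was outside it.

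**Figure D2:**
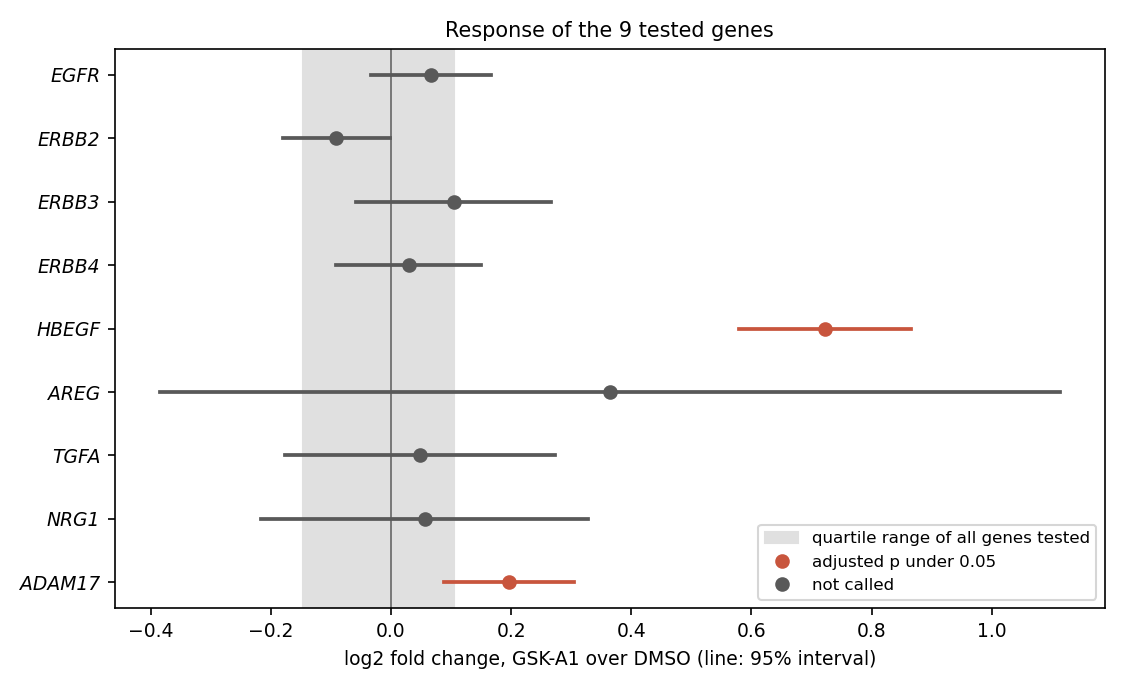
Log2 fold change of GSK-A1 over DMSO (horizontal axis) for the 9 tested members, with 95% intervals as lines and the quartile range of all genes tested as a grey band (-0.15 to 0.10). HBEGF at 0.72 and ADAM17 at 0.20 are red (edgeR adjusted p under 0.05), and the AREG interval is the widest, from -0.38 to 1.11.

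ADAM17 (ENSG00000151694, chr2:9488486-9556732, minus strand) encodes the protease that sheds HBEGF, AREG, EREG and TGFA. It stood at 41.4, 40.7 and 40.7 CPM with DMSO and at 46.7, 50.4 and 43.7 CPM with GSK-A1. The groups did not overlap, and GSK-A1 replicate 2 was again the highest library. The means were 40.9 ± 0.4 and 46.9 ± 3.3 CPM (SD, n = 3), and the log2 fold change was 0.20 ± 0.05 (SE; adjusted p = 0.0116 by edgeR; 95% interval 0.09 to 0.30). The rise was 14.6%, with an interval of 6.31% to 23.5%, and 2001 of the 16754 genes had a p-value at least as small. Without GSK-A1 replicate 2 it was 0.15 ± 0.04 (edgeR adjusted p = 0.00352). The call was lost without DMSO replicate 2 (0.19, edgeR adjusted p = 0.0616) or DMSO replicate 3 (0.19, edgeR adjusted p = 0.0561). Exons of IAH1 on the opposite strand cover 12.3% of the exonic length of ADAM17; IAH1 stood at 25.6 ± 1.7 and 27.4 ± 0.6 CPM (SD, n = 3; log2 fold change 0.10 ± 0.06, edgeR adjusted p = 0.231), and its part in the ADAM17 count was not tested.

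**Figure D3:**
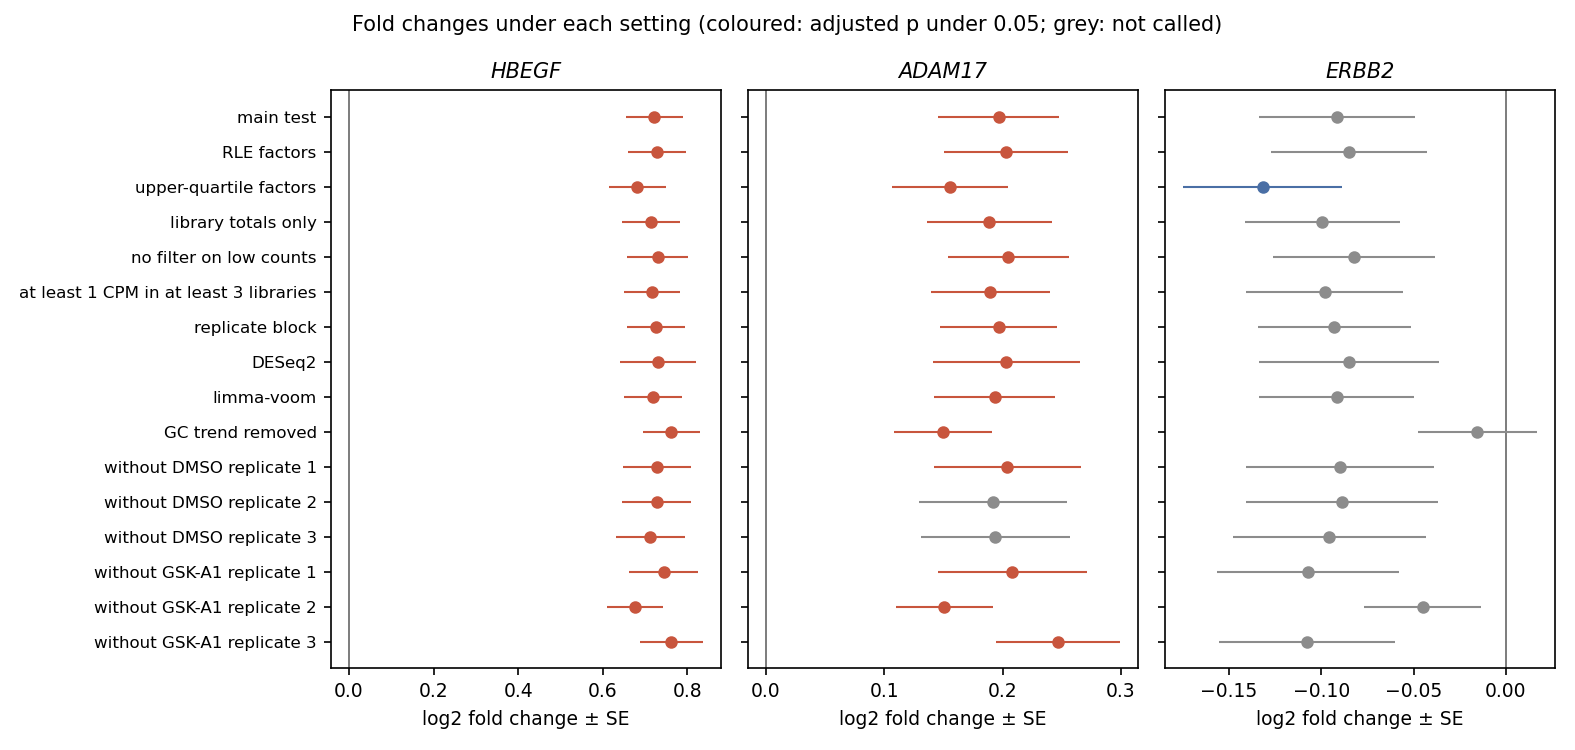
Log2 fold change ± SE (horizontal axes, 1 scale per gene) of HBEGF, ADAM17 and ERBB2 under the main test and 15 alternatives (rows); coloured points have an adjusted p under 0.05 and grey points do not. HBEGF stays between 0.68 and 0.76, ADAM17 between 0.15 and 0.25, and ERBB2 between -0.13 and -0.02, called only under upper-quartile factors.

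Levels of different genes were compared per kilobase of exonic length (GENCODE 29, all exons of a gene merged). Among the receptors in DMSO cells, ERBB2 was at 10.08 ± 0.06 CPM per kb, EGFR at 3.32 ± 0.16, ERBB4 at 1.35 ± 0.05 and ERBB3 at 0.98 ± 0.06 (SD, n = 3). ERBB2 thus made up 64.1% ± 0.7 of the summed receptor level with DMSO and 61.5% ± 1.1 with GSK-A1. ADAM17 was at 3.81 ± 0.03 and HBEGF at 3.21 ± 0.05 CPM per kb, the latter within the spread of EGFR. TGFA at 1.07 ± 0.09 did not differ from ERBB3 beyond their spread. NRG1 was at 0.29 ± 0.02 and AREG at 0.15 ± 0.05. Dividing by the longest transcript in place of merged exons kept ERBB2, ADAM17, EGFR and HBEGF in this order and put ERBB3 (1.50) above ERBB4 (1.45). It put ERBB2 at 21.1 and EGFR at 4.23 CPM per kb with DMSO, so the ERBB2 share depends on the length used. TGFA was then at 1.235, below ERBB3, so their closeness also depends on the length.

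HBEGF moved within this order. With GSK-A1 it was at 5.31 ± 0.35 CPM per kb, above ADAM17 at 4.37 ± 0.31 and EGFR at 3.47 ± 0.03. Its level per length relative to EGFR went from 0.97 ± 0.06 to 1.53 ± 0.11 (SD, n = 3), with no overlap between the groups. The ratio of ADAM17 to HBEGF went from 1.18 ± 0.02 to 0.82 ± 0.01, and by the longest transcript ADAM17 (7.14) stayed above HBEGF (6.72) with GSK-A1.

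Set beside the 6 other ligand genes of the family (EGF, BTC, EPGN, NRG2, NRG3 and NRG4), HBEGF was the highest per length in both groups. It made up 27.1% ± 0.8 of the summed level of all 11 ligands with DMSO and 38.5% ± 2.4 with GSK-A1. NRG3, a neuregulin that binds ERBB4, followed at 2.52 ± 0.06 and 2.57 ± 0.29 CPM per kb, and EGF itself at 1.96 ± 0.21 and 2.05 ± 0.06. The sum over the 11 went from 11.8 ± 0.5 to 13.8 ± 0.3 CPM per kb. Exons of FBXO22 on the opposite strand cover 38.1% of the exonic length of NRG4, which is part of this sum. FBXO22 stood at 58.6 ± 1.0 CPM with DMSO and 55.6 ± 2.4 CPM with GSK-A1 (SD, n = 3). Its part in the NRG4 count was not tested. BTC and EPGN, like EREG, did not pass the count filter and are too low to judge.

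**Figure D4:**
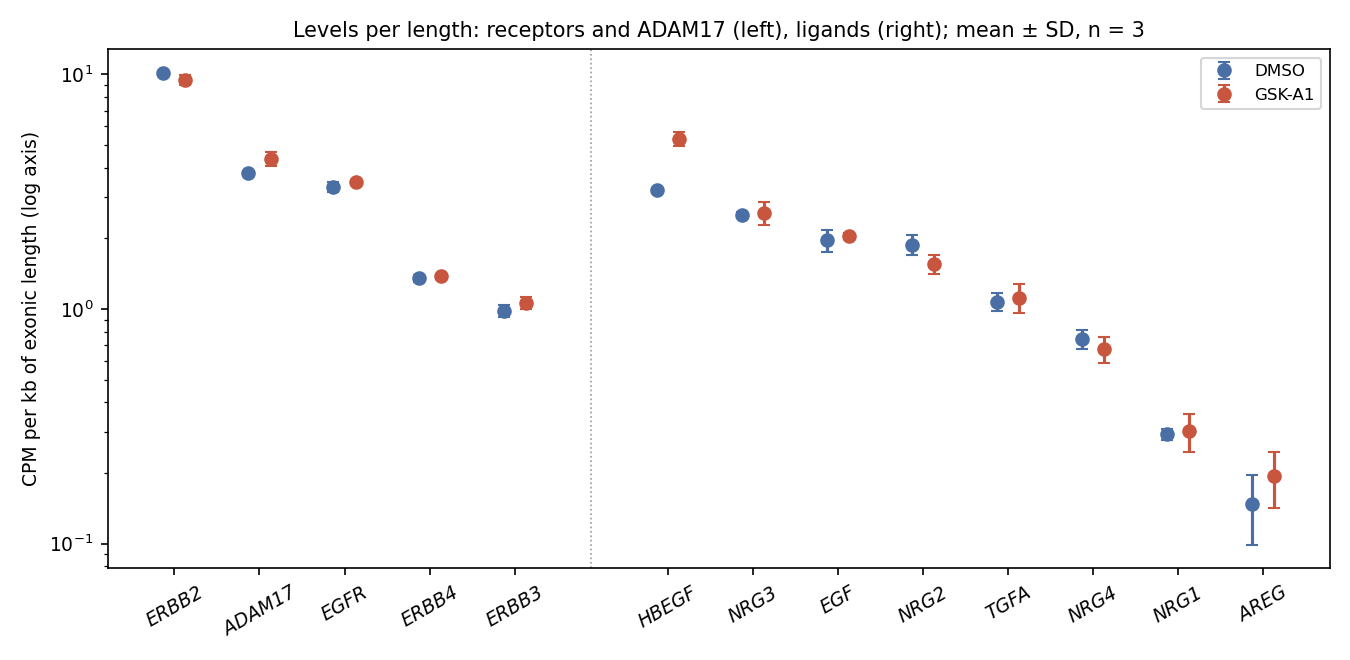
Level per kilobase of exonic length (log axis) with DMSO (blue) and GSK-A1 (red), mean ± SD of 3 libraries, for the receptors and ADAM17 on the left and the 8 ligands above 0.05 CPM per kb on the right. HBEGF is the ligand with the visible step, from 3.21 to 5.31, and ERBB2 is the highest gene of all at 10.08 and 9.46.

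The wider pathway was read from a list of 63 other genes, of which 59 passed the count filter. The list was drawn up with earlier results of these data known. Its shares and those of its role groups are therefore descriptions and not independent evidence about the pathway. Of the 59 genes, 17 passed as higher with GSK-A1 and 3 as lower, 33.9% against 22.9% of all genes tested. The median log2 fold change was 0.07, against -0.01 over all genes. When only genes of at least 1 CPM in at least 3 libraries were tested, 27.7% of 13791 genes were called, and 21 of the list. The 22.9% thus takes in genes at lower levels, and neither the list nor its role groups were matched to all genes for level. Leaving out DMSO replicate 1 left 11 calls in this list, and leaving out DMSO replicate 2 left 12, while the share of all genes called also fell, to 12.9% and 13.2%. Omitting GSK-A1 replicate 2 gave 25 calls, with 28.1% of all genes called. The genes named were the called ones with the smallest p in each role.

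Among the sheddases and their regulators, 5 of 10 were called, all higher, against 12.0% of all genes called higher. TIMP3, a secreted inhibitor of ADAM17 and other metalloproteases, had the largest rise: it stood at 67.0, 69.2 and 70.1 CPM with DMSO and at 98.0, 100.2 and 93.2 CPM with GSK-A1. This was a log2 fold change of 0.50 ± 0.04 (SE; adjusted p = 6.31e-07 by edgeR). On the log2 scale, which also holds for the later rises, ADAM9, a related protease, rose by 0.22 ± 0.05 (edgeR adjusted p = 0.00243), and FURIN, which activates ADAM precursors, by 0.15 ± 0.04 (edgeR adjusted p = 0.0168). FURIN did not pass with upper-quartile factors, nor when DMSO replicate 1 or 2 or GSK-A1 replicate 1 or 3 was left out, with an edgeR adjusted p of up to 0.105. The other called members, ADAM10 (0.16 ± 0.05, edgeR adjusted p = 0.0181) and RHBDF2 (0.18 ± 0.05, edgeR adjusted p = 0.0260), are named after their values were seen. ADAM10 is the main sheddase of EGF and betacellulin, and RHBDF2 encodes iRhom2, a partner that carries ADAM17 to the surface. Neither passed with upper-quartile factors or when any single DMSO library was left out, and RHBDF2 also fell short without GSK-A1 replicate 3, with an edgeR adjusted p of up to 0.113. Its paralog RHBDF1, also named after its values were seen, was not called at 0.33 ± 0.11 (edgeR adjusted p = 0.0599); its GSK-A1 libraries ran from 14.6 to 21.4 CPM. RHBDF1 did pass in 6 of the 15 alternatives, among them DESeq2 (adjusted p = 0.00926), the replicate block (0.31, edgeR adjusted p = 0.0131), and leaving out GSK-A1 replicate 2 (0.46, edgeR adjusted p = 3.05e-08).

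Among receptor inhibitors and degradation factors, 5 of 18 were called higher and 1 lower. That is 33.3% in either direction, against 22.9% of all genes. ERRFI1, which encodes MIG6, a protein that binds the EGFR kinase and blocks it, stood at 39.8, 38.8 and 40.8 CPM with DMSO and at 53.8, 57.6 and 53.2 CPM with GSK-A1. All GSK-A1 libraries were above all DMSO libraries, and the log2 fold change was 0.46 ± 0.05 (SE; adjusted p = 4.73e-06 by edgeR). CBL, a ubiquitin ligase that marks active EGFR for degradation, rose by 0.26 ± 0.05 (edgeR adjusted p = 0.00114). MCAM on the opposite strand covers 4.34% of the exonic length of CBL; MCAM itself rose by 0.34 ± 0.05 (edgeR adjusted p = 9.16e-05), and its part in the CBL count was not tested. SH3KBP1, a CBL-binding adaptor of receptor uptake, rose by 0.21 ± 0.04 (edgeR adjusted p = 0.00301). STUB1, a ubiquitin ligase that works with chaperones, fell by 0.10 ± 0.03 on the log2 scale (edgeR adjusted p = 0.0383). JMJD8 on the opposite strand covers 42.4% of the exonic length of STUB1; JMJD8 was not called (-0.10 ± 0.05, edgeR adjusted p = 0.185), and its part in the STUB1 count was not tested. With the GC trend removed the value for STUB1 was 0.00020 (edgeR adjusted p = 0.998), so its direction is uncertain. STUB1 passed in only 6 of 15 alternatives. It also missed the threshold with RLE factors, without the count filter, in DESeq2, and when any library but GSK-A1 replicate 2 was left out, with an adjusted p of 0.0517 to 0.122 in these.

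Of the receptor trafficking adaptors, 2 of 9 were called, both higher, and this 22.2% is near the 22.9% of all genes. EPS15, a clathrin-pit adaptor of EGFR uptake, rose by 0.18 ± 0.04 (edgeR adjusted p = 0.00759). GRB2, the adaptor that links phosphorylated receptors to the RAS activator SOS, rose by 0.12 ± 0.03 (edgeR adjusted p = 0.0202). The EPS15 call was lost without DMSO replicate 1 (edgeR adjusted p = 0.0627). GRB2 did not pass with upper-quartile factors, nor when any DMSO library or GSK-A1 replicate 1 was left out, with an edgeR adjusted p of up to 0.101.

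Of the signalling adaptors and effectors, 5 of 18 were called higher and 1 lower, again 33.3% against 22.9%. GAB2, a docking protein for PI3-kinase and PTPN11, had the largest change at 20.9, 21.3 and 21.9 CPM with DMSO and 32.1, 28.0 and 31.0 CPM with GSK-A1 (log2 fold change 0.51 ± 0.06, SE; adjusted p = 1.69e-05 by edgeR). PTPN11, which encodes the phosphatase SHP2 needed for RAS activation, rose by 0.24 ± 0.03 (edgeR adjusted p = 1.24e-04). STAT5B, a transcription factor phosphorylated downstream of the receptors, rose by 0.22 ± 0.04 (edgeR adjusted p = 5.38e-04). Of their longest transcripts, 6.94% and 10.03% of the 50-base stretches also occur in other genes, so part of either count could be shared. PLCG1, which encodes phospholipase C gamma 1 and cleaves phosphatidylinositol 4,5-bisphosphate, went the other way, from 136.9 ± 0.4 to 122.2 ± 5.2 CPM (SD, n = 3; log2 fold change -0.16 ± 0.04, edgeR adjusted p = 0.00701).

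Among the other ligands, 1 of 4 tested was called (25%), near the share of all genes. NRG2, a neuregulin that binds ERBB3 and ERBB4, stood at 8.95, 8.97 and 7.54 CPM with DMSO and at 7.08, 6.36 and 7.68 CPM with GSK-A1. The groups overlapped, since DMSO replicate 3 lay below GSK-A1 replicate 3. The log2 fold change was -0.28 ± 0.09 (SE; adjusted p = 0.0362 by edgeR). The call was lost in 5 of 15 alternatives: DESeq2, the GC trend removed, and leaving out DMSO replicate 1 or 2 or GSK-A1 replicate 1, with an adjusted p of up to 0.154.

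**Figure D5:**
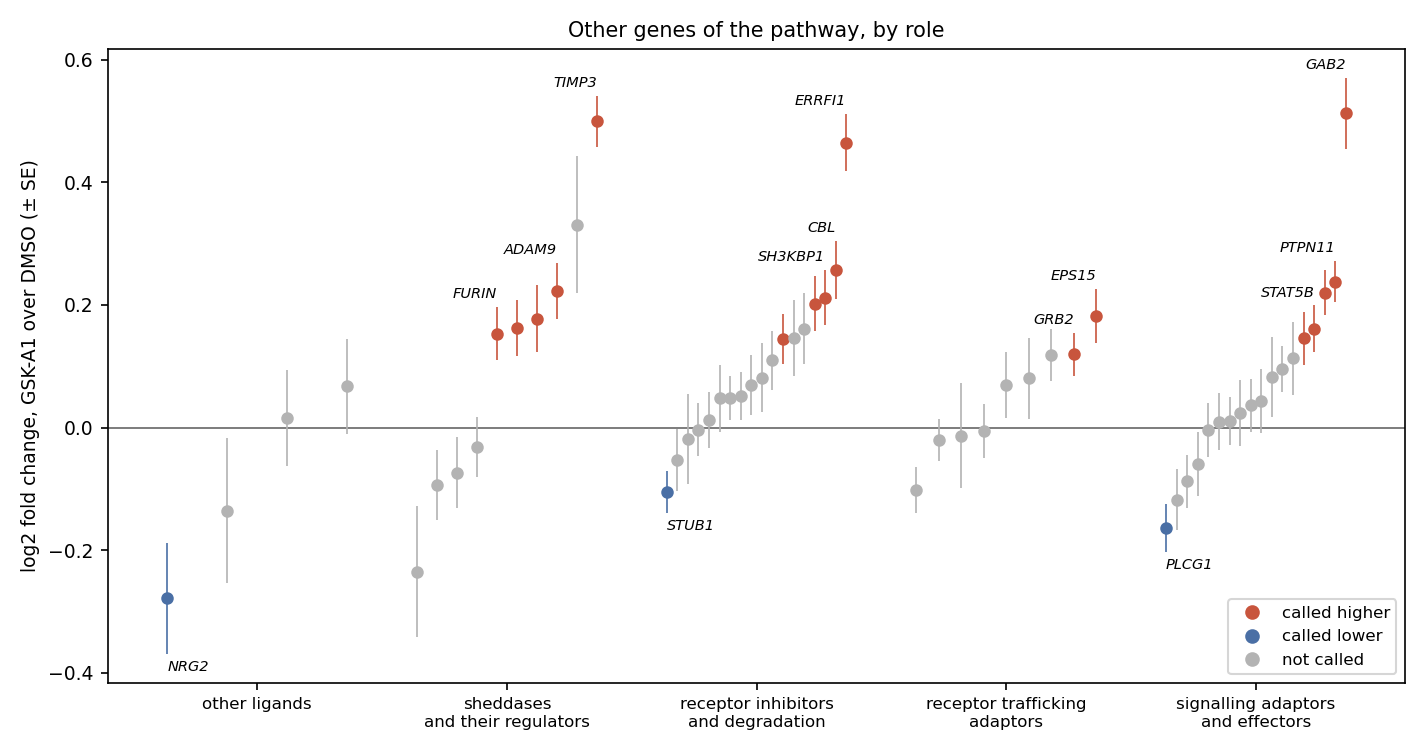
Log2 fold change ± SE of GSK-A1 over DMSO (vertical axis) for the 59 tested genes of the pathway list, grouped by role and sorted within each; red and blue points are called higher and lower by edgeR, grey points are not called, and the genes named by rule carry labels. TIMP3 (0.50), ERRFI1 (0.46) and GAB2 (0.51) stand above the rest of their groups.

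The genes whose log2 CPM followed a called member most closely were found among 12815 tested genes with a symbol and a mean of at least 1 CPM. For HBEGF they were DSE, GNL3 and PXK, with Pearson r of 0.999 over the 6 libraries. Their own log2 fold changes were 0.19, 0.19 and 0.25, smaller than that of HBEGF. For ADAM17 they were RPSAP47, a pseudogene whose reads may come from its parent gene, NOMO1, which has near-identical copies, and ACBD3, a Golgi protein, with r of 0.999, 0.998 and 0.997. With 6 libraries in groups of 3, such values largely restate the difference between the groups.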

How the data were processed

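The authors deposited raw counts per gene for 6 libraries; no column was left unused. Per the labels' protocols a stranded kit was used. The submitters' processing notes name cutadapt 5.1, STAR 2.7.11b, featureCounts, Subread 2.1.1, DESeq2 1.38.0 and GRCh38.p13; strand setting and annotation release are not given in the sources used here. Groups and replicate numbers came from the sample titles.

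Genes were filtered with filterByExpr (smallest count 10, smallest total 15), scaled by TMM and tested with edgeR 4.0.16 (R 4.3.3; robust quasi-likelihood F test, legacy option off) on all 6 libraries without covariates. Standard errors and 95% intervals use the unshrunken coefficient and the fit's residual degrees of freedom. A member is too low to judge when the filter removes it and imprecise when its interval reaches over 0.5 to either side of the estimate. Poisson intervals cover the counting error of the summed reads only and leave out the spread between libraries. Reads carried no molecular identifiers, and duplicate reads were not accounted for. CPM is mean ± SD over 3 libraries. Lengths, overlaps and shared 50-base stretches came from GENCODE 29, promoters from RefSeq (GRCh38.p14).

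All 10 members were named; of the pathway list, up to 3 called genes per role and direction with the smallest p; and the 3 genes most correlated with each called member (log2 CPM, prior count 2). The members and lists were chosen with earlier results of these data known. Alternatives were other library factors (RLE, upper quartile, totals), other filters, the replicate block, DESeq2 1.42.0, limma-voom (limma 3.58.1), leaving out each library, and, chosen after seeing the data, removal of each library's GC trend (loess, span 0.3). The code was tested on simulated data.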

Additional observations from a re-analysis of the deposited data

How the results depend on the processing

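HBEGF was called in all 15 alternatives (log2 fold change 0.68 to 0.76) and ADAM17 in 13 (0.15 to 0.25), lost only without DMSO replicate 2 or 3. EGFR, ERBB3 and AREG kept their sign and were called in none, as ERBB2 was in all but upper-quartile factors; AREG has no value under the filter of at least 1 CPM, which removes it. Signs turned for ERBB4 under upper-quartile factors (-0.011), for NRG1 with 1 library left out (-0.094 to 0.178, below 0 only without GSK-A1 replicate 1), for TGFA with 1 library left out (-0.056 to 0.120; -0.0054 without DMSO replicate 3 and lowest when GSK-A1 replicate 3 was omitted), and for STUB1 with the GC trend removed (0.00020); the cause was not tested. With 1 library left out the genes called numbered 2163 to 4890 (3835 with all 6), the members called 1 to 2, and the pathway genes called 11 to 25; those fits hold fewer samples. Without GSK-A1 replicate 2, the library that stood apart, the pathway calls were 25. No setting moved the median of all genes by over 0.1 on the log2 scale. Deviations of replicates with the same number had correlations across genes of 0.011, 0.019 and 0.032. GSK-A1 replicates 2 and 3 correlated best with the DMSO library of the same number, and GSK-A1 replicate 1 with DMSO replicate 2 at 0.012. All values lay between -0.033 and 0.032, too near 0 to tell whether the numbers pair the samples. With the replicate block 4127 genes, 2 members and 22 pathway genes were called. Depth limits AREG and EREG.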

Other observations

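The order of the GSK-A1 libraries was read over all 19 members and pathway genes that were called higher. In 10 of them, HBEGF, ADAM17, ADAM9, ADAM10, TIMP3, ERRFI1, USP8, EPS15, SOS1 and PTPN11, replicate 2 was the highest library, then replicate 1, then replicate 3. The other 9 followed all 5 other orders: replicate 3 was the highest in GRB2, STAT5B, SOCS4 and FURIN, replicate 1 in GAB2, CBL and CRK, and replicate 2 in SH3KBP1 and RHBDF2, but there with replicate 1 the lowest. All 3 genes called lower (NRG2, PLCG1 and STUB1) were lowest in replicate 2. RHBDF1, which was not called, had GSK-A1 libraries at 18.5, 14.6 and 21.4 CPM against 14.2 to 14.8 CPM with DMSO. GSK-A1 replicate 2 is also the library that stood apart in its correlations across all genes tested. The share of all genes called higher with the order 2, 1, 3 was not counted. The 4 genes with the smallest p among all those tested were called higher and lie outside both lists. Of these, RHOB and EGR1 also had replicate 2 highest and replicate 3 lowest, while ZCCHC12 and TNFRSF12A had replicate 1 highest. The pattern was noticed after the values were seen, and whether it is particular to the members and pathway genes was not tested.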
